A study of Mus musculus with 24 samples.

Results

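A set of 10 oncofetal or tumour-linked genes, Afp, Gpc3, Igf2, Ly6d, Sprr1a, Cd24a, Tspan8, Prom1, Golm1 and Myc, was followed across mouse livers with and without the bile acid receptor FXR, and with and without an FXR agonist. These 10 of the 18820 genes with a name on the array were chosen by name as fetal, progenitor and tumour-linked genes, with the difference between knockout and wild-type livers of these same arrays in view. The knockout against wild type values of these 10 genes under vehicle are therefore given as a description, with no p-value and no call. Under OCA, calls and p-values are printed for genes chosen in the same way, so they are no independent test of the set. Each gene was read from 1 probe set, the one with the highest mean where there were several.

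The study profiled 4 groups of 6 male C57BL/6 mice on chow, aged 9 to 12 weeks, by whole-transcript array, with 1 liver per array and 24 arrays in all. The groups were FXR-/- mice given obeticholic acid (OCA, also called INT-747, a semi-synthetic bile acid that activates FXR), FXR-/- mice given vehicle, wild-type mice given OCA and wild-type mice given vehicle. OCA was dosed at 10 mg/kg/day in 1% methyl cellulose by daily oral gavage for 7 days, and vehicle mice received 1% methyl cellulose alone. The FXR-/- line lacks the receptor from birth, so lasting consequences of its absence and its acute action cannot be told apart in the genotype comparison. The samples were pieces of whole liver, in which fewer cells of a type and less RNA per cell cannot be told apart. All levels below are log2 signal, and a gene was called at an adjusted p under 0.05 in limma (Benjamini-Hochberg over all 18820 genes).

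FXR, encoded by Nr1h4, senses bile acids in hepatocytes, and through its target Nr0b2 (SHP, a repressor) and others it restrains bile acid synthesis. Mice without FXR are known to form liver tumours with age. Oncofetal genes are made by the fetal liver, fall silent after birth and can return in regeneration or in hepatocellular carcinoma. Afp encodes alpha-fetoprotein, the main serum protein of the fetus, Gpc3 a heparan sulphate proteoglycan of the cell surface, and Igf2 an imprinted fetal growth factor.

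The stretches before the start site are shown for Sprr1a, Afp, Tspan8 and Golm1, which are 4 of the 6 genes called higher in knockout liver under OCA and which have a RefSeq promoter entry. Each is 250 bases long, 5′ to 3′ on the gene's own strand, and ends at the base before the start of the entry's transcript (RefSeq, GRCm38.p6). For Tspan8 that start, and the stretch before it, lie inside the annotated gene, past its first base. Their positions are chr3:92485882-92486131 on the minus strand for Sprr1a, chr5:90490464-90490713 on the plus strand for Afp, chr10:115817034-115817283 on the plus strand for Tspan8 and chr13:59675785-59676034 on the minus strand for Golm1. Capitals mark matches to 6 motifs searched on both strands, which were chosen with the letters of these promoters in view.
Sprr1a: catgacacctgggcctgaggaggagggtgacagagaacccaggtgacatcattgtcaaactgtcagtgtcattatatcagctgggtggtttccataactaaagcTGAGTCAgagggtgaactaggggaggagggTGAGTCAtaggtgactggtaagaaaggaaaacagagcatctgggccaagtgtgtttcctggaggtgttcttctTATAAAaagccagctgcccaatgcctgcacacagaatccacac
Afp: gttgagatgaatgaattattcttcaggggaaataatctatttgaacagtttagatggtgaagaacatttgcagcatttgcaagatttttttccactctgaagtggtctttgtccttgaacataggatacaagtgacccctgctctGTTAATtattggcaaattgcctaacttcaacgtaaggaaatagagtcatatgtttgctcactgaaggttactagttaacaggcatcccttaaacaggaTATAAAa
Tspan8: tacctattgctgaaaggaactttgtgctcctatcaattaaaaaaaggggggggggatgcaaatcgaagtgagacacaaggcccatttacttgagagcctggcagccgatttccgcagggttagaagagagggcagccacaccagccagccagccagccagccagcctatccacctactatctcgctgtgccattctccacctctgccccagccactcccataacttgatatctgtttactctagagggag
Golm1: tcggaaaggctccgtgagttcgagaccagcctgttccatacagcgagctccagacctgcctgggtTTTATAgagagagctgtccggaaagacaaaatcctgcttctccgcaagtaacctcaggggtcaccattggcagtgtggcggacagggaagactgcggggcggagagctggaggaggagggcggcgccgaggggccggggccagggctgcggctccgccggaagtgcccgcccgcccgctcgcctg

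The Sprr1a stretch held the AP-1 letters TGANTCA at −146 to −140 and again at −116 to −110, and the TATA letters TATAAA at −43 to −38. AP-1 letters were present in 6.749% of all 32851 promoter entries of this length and TATA letters in 12.368%. The Afp stretch held TATAAA at −7 to −2 and the HNF1 letters GTTAAT at −105 to −100, which were in 6.432% of entries. Golm1 held TATAAA on the other strand at −185 to −180, and Tspan8 held none of the 6 motifs. The other motifs were the E-box CACGTG (6.021% of entries), the TEAD letters GGAATG (12.642%) and the FXR inverted repeat (0.006%), and these 4 stretches held none of them. A match is a description of letters, not a site.

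The genotype labels were checked first. Nr1h4 itself averaged 9.92 ± 0.09 in knockout OCA livers and 9.97 ± 0.11 in knockout vehicle livers, against 10.07 ± 0.16 in wild-type OCA livers and 10.14 ± 0.12 in wild-type vehicle livers (SD, n = 6 each). The sources used here do not say whether its probes lie inside the deleted part, so that level checks nothing. Nr0b2 was 14.2-fold lower in knockout than in wild-type livers under OCA, and the 2 groups of arrays did not overlap. A single array, wild-type vehicle replicate 6, had 532 genes over 2-fold away from the mean of the other 5 of its group, against 2 to 90 genes for every other array. The array names carry a number, 5, 7 or 9, which no label explains. All knockout OCA arrays carried 9 and all wild-type OCA arrays carried 5, so under OCA this number and the genotype cannot be told apart, except through a model that borrows the number's effect from the vehicle arrays. Under vehicle, number 7 held 4 knockout and 4 wild-type arrays.

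Under vehicle, 6 of the 10 genes were higher in every knockout array than in any wild-type array, where 9.4% of all genes were, and nothing is read from this count. In the mice given OCA, which were other animals of the same series, 6 of 10 were called higher and none lower, where 17.4% of all genes were called higher. The choice of the genes had these arrays in view too, so nothing is read from that count either. With the array number as a block that count was 4, since Afp (adjusted p = 0.43) and Cd24a (adjusted p = 0.125) were no longer called. Of the 10, 5 had no overlap there, where 10.9% of all genes were higher without overlap. The median log2 difference of the 10 genes was 0.67 under OCA, against −0.02 over all genes, and 0.78 under vehicle, against −0.03. The 6 called genes were Ly6d, Sprr1a, Cd24a, Tspan8, Golm1 and Afp, and the 4 not called were Gpc3, Igf2, Prom1 and Myc.

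**Figure D1:**
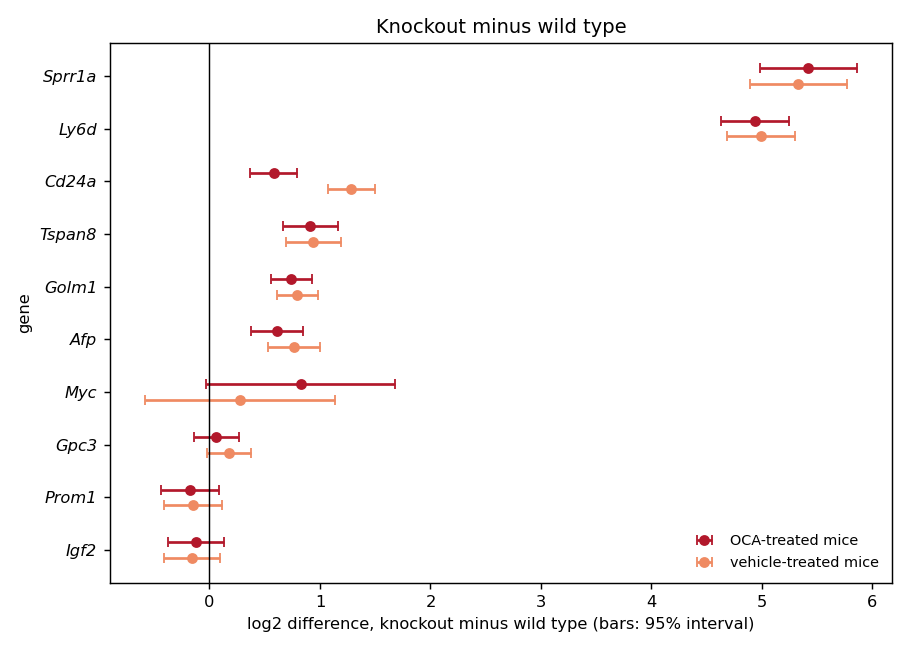
Log2 difference (x axis) between knockout and wild-type liver for each of the 10 genes (y axis), in OCA-treated mice (dark red) and vehicle-treated mice (orange). Points are fitted differences and bars their 95% intervals. Sprr1a and Ly6d lie near 5, and Cd24a, Tspan8, Golm1 and Afp lie between 0.58 and 1.28. Under OCA the intervals of the other genes include 0. The genes were chosen with the genotype difference in view, so the vehicle bars are a description and no call.

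The largest differences belonged to a pair of genes better known from surface epithelia. Sprr1a encodes a small proline-rich protein that is cross-linked into the cornified envelope of skin cells (chromosome 3, 92483954 to 92485881, GRCm38.p6). Its lowest, median and highest levels were 9.36, 10.05 and 10.46 in knockout OCA livers and 8.68, 9.78 and 10.26 in knockout vehicle livers, against 4.31, 4.66 and 4.97 in wild-type OCA livers and 3.93, 4.35 and 4.79 in wild-type vehicle livers. The lowest knockout array, at 8.68, stood far above the highest wild-type array, at 4.97. The knockout level was 5.42 ± 0.21 (SE) log2 units or 42.8-fold above wild type under OCA (limma, adjusted p = 5.78e-16) and 5.33 ± 0.21 or 40.2-fold above it under vehicle. Ranked by the log2 difference, Sprr1a was number 3 of 18820 genes in either treatment.

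Ly6d encodes a small surface protein held by a lipid anchor, known from keratinocytes and from early B cells (chromosome 15, 74762056 to 74763567). Its lowest, median and highest levels were 9.36, 9.70 and 9.88 in knockout OCA livers and 9.18, 9.90 and 10.28 in knockout vehicle livers, against 4.27, 4.75 and 4.99 in wild-type OCA livers and 4.52, 4.84 and 5.06 in wild-type vehicle livers. The genotypes did not overlap under either treatment. The difference was 4.94 ± 0.15 log2 units or 30.7-fold under OCA (limma, adjusted p = 2.88e-18) and 4.99 ± 0.15 or 31.8-fold under vehicle. Ly6d was number 6 under OCA and number 5 under vehicle in the same ranking. Only 9 genes of the array were over 16-fold higher in knockout liver under OCA and 8 under vehicle, and Sprr1a and Ly6d were among them. The wild-type levels of both genes lay below the median gene of the array, at 5.28, where the share of background is unknown, so the folds depend on it.

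The relatives of these genes did not share that level of difference. Of 20 measured genes of the Ly6 and small proline-rich families, 1 was called higher and 1 lower under OCA, with a list median of −0.01. Under vehicle 2 were called higher and 1 lower. Over all genes 17.4% were called higher and 13.3% lower under OCA, and 15.4% and 12.1% under vehicle. Sprr1b, a relative of Sprr1a, was higher by 0.35 ± 0.12 log2 units (limma, adjusted p = 0.0256), at 3.39 ± 0.23 in knockout OCA livers and 3.04 ± 0.28 in wild-type OCA livers (SD, n = 6 each). Sprr2g was lower, at −0.23 ± 0.09 (adjusted p = 0.0421), and Ly6e differed by 0.07 ± 0.10 (adjusted p = 0.637). Under vehicle Ly6e was higher by 0.30 ± 0.10 (limma, adjusted p = 0.0228). Markers of B cells, the blood cells in which Ly6d is known, summed to 123.8 to 177.7 in knockout OCA livers and 113.1 to 154.1 in wild-type OCA livers on the linear signal scale, so the groups overlapped. Of 7 such markers measured, Cd22 was called higher (0.67 ± 0.12, adjusted p = 0.000136) and Fcrla lower (−0.28 ± 0.10, adjusted p = 0.0437).

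**Figure D2:**
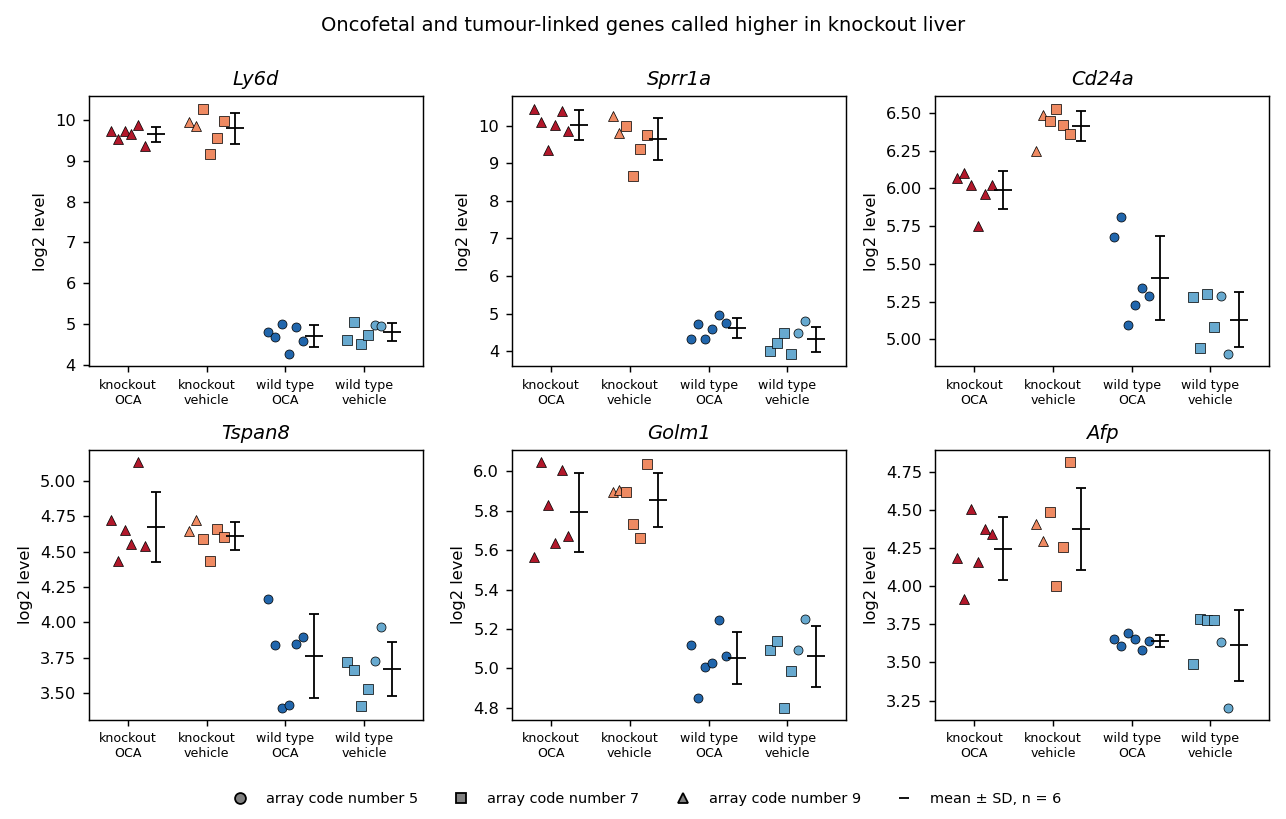
Log2 level (y axis) of the 6 genes called higher in knockout liver, in the 4 groups (x axis), with 1 point per array. The point shape gives the number in the array name, and the bars give mean ± SD (n = 6). Ly6d and Sprr1a stand near 10 in every knockout group and near 4.5 in wild type, and Cd24a is lower with OCA than with vehicle in knockout liver.

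The surface markers of progenitor and tumour cells split. Cd24a encodes a heavily glycosylated surface protein of progenitor and immune cells (chromosome 10, 43579169 to 43584265). Its lowest, median and highest levels were 5.75, 6.03 and 6.10 in knockout OCA livers and 6.25, 6.43 and 6.53 in knockout vehicle livers, against 5.10, 5.32 and 5.81 in wild-type OCA livers and 4.90, 5.18 and 5.30 in wild-type vehicle livers. The genotypes overlapped under OCA and did not under vehicle. The difference was 0.58 ± 0.10 log2 units or 1.5-fold under OCA (limma, adjusted p = 8.06e-05, and 0.125 with the array number as a block) and 1.28 ± 0.10 or 2.43-fold under vehicle.

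Tspan8 encodes a tetraspanin, a membrane protein that organises adhesion receptors (chromosome 10, 115816817 to 115849893). The lowest, median and highest Tspan8 levels were 4.43, 4.60 and 5.13 in knockout OCA livers and 4.43, 4.63 and 4.72 in knockout vehicle livers, against 3.40, 3.84 and 4.16 in wild-type OCA livers and 3.41, 3.69 and 3.97 in wild-type vehicle livers. No knockout array fell within the wild-type range. All Tspan8 levels lay below the median gene (5.28), where the share of background is unknown. The difference was 0.91 ± 0.12 log2 units or 1.88-fold under OCA (limma, adjusted p = 1.64e-06) and 0.94 ± 0.12 or 1.92-fold under vehicle.

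Prom1 encodes prominin (CD133), a membrane protein of progenitor cells (chromosome 5, 43993621 to 44102047). Its lowest, median and highest levels were 3.28, 3.41 and 3.88 in knockout OCA livers and 3.20, 3.55 and 3.86 in knockout vehicle livers, against 3.44, 3.55 and 4.16 in wild-type OCA livers and 3.33, 3.70 and 4.01 in wild-type vehicle livers. All 4 groups overlapped. The Prom1 levels all lay below the median gene (5.28), where the share of background is unknown. The difference was −0.18 ± 0.13 under OCA, with a 95% interval of −0.44 to 0.08 (limma, adjusted p = 0.32), and −0.15 ± 0.13 under vehicle. A second Prom1 probe set gave the opposite sign, at 0.24 ± 0.13 under OCA (adjusted p = 0.189) and 0.33 ± 0.13 under vehicle. The direction for this gene therefore depended on the probe set.

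Golm1 encodes a Golgi membrane protein, also called GP73, that is measured in serum as a liver tumour marker in humans (chromosome 13, 59634996 to 59675784). For Golm1 the lowest, median and highest levels were 5.57, 5.75 and 6.05 in knockout OCA livers and 5.66, 5.90 and 6.04 in knockout vehicle livers, against 4.85, 5.05 and 5.25 in wild-type OCA livers and 4.80, 5.09 and 5.25 in wild-type vehicle livers. The genotypes were apart in both treatments, and the wild-type levels lay below the median gene (5.28). The difference was 0.74 ± 0.09 log2 units or 1.67-fold under OCA (limma, adjusted p = 4.41e-07) and 0.79 ± 0.09 or 1.73-fold under vehicle.

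Among the 3 fetal genes, Afp alone was called. Afp lies on chromosome 5 at 90490714 to 90508907. Its lowest, median and highest levels were 3.92, 4.26 and 4.50 in knockout OCA livers and 4.00, 4.35 and 4.81 in knockout vehicle livers, against 3.58, 3.65 and 3.69 in wild-type OCA livers and 3.20, 3.71 and 3.79 in wild-type vehicle livers. The genotypes did not overlap, but all these levels lay below the median gene as well. The difference was 0.61 ± 0.11 log2 units or 1.52-fold under OCA (limma, adjusted p = 0.000161, and 0.43 with the array number as a block) and 0.77 ± 0.11 or 1.70-fold under vehicle. Without detection calls, the share of background in levels this low is unknown. Gpc3 and Igf2, given next, lay wholly below the median gene too, so the same limit holds for them.

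Gpc3, at chromosome X 52272426 to 52613974, had lowest, median and highest levels of 3.68, 3.88 and 4.22 in knockout OCA livers and 3.68, 3.85 and 4.13 in knockout vehicle livers, against 3.74, 3.85 and 3.95 in wild-type OCA livers and 3.38, 3.71 and 3.88 in wild-type vehicle livers. The groups overlapped in both treatments. Its difference was 0.06 ± 0.10 under OCA, with a 95% interval of −0.14 to 0.26 (limma, adjusted p = 0.681), and 0.18 ± 0.10 under vehicle. With the array number as a block the Gpc3 difference under OCA was 0.57 (limma, adjusted p = 0.0719), outside that interval. Its sign under OCA turned, to −0.13, where each array was centred on the median of the named genes. Igf2, at chromosome 7 142650768 to 142666816, had lowest, median and highest levels of 3.40, 3.44 and 3.78 in knockout OCA livers and 3.26, 3.53 and 3.67 in knockout vehicle livers, against 3.25, 3.60 and 3.96 in wild-type OCA livers and 3.40, 3.57 and 4.23 in wild-type vehicle livers. These groups overlapped as well. Its difference was −0.12 ± 0.12 under OCA, with a 95% interval of −0.38 to 0.13 (limma, adjusted p = 0.506), and −0.16 ± 0.12 under vehicle. With that same centring, chosen after the data were seen, Igf2 and Prom1 were called lower under OCA at −0.31 (adjusted p = 0.0344) and −0.37 (adjusted p = 0.0171), while the median of all genes stood at −0.21.

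Myc, a transcription factor of growth and division (chromosome 15, 61985341 to 61990361), varied widely from mouse to mouse. Myc levels had a lowest, median and highest value of 7.58, 8.23 and 8.41 in knockout OCA livers and 7.89, 8.19 and 9.74 in knockout vehicle livers, against 6.43, 7.13 and 8.41 in wild-type OCA livers and 6.36, 8.03 and 9.88 in wild-type vehicle livers. The wild-type vehicle arrays alone spanned the range of all 4 groups, with an SD of 1.21. The difference was 0.83 ± 0.42 log2 units or 1.77-fold under OCA, with a 95% interval of −0.03 to 1.68 (limma, adjusted p = 0.142), and 0.28 ± 0.42 under vehicle. It was called under OCA where only these 2 groups were fitted (adjusted p = 0.0241).

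**Figure D3:**
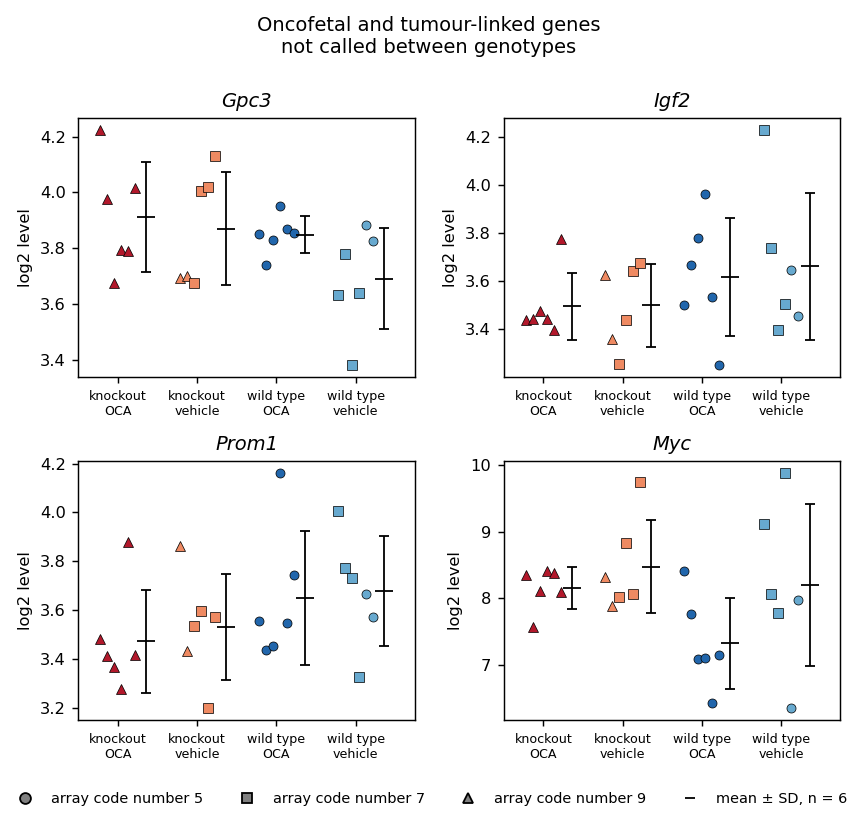
Log2 level (y axis) of Gpc3, Igf2, Prom1 and Myc in the 4 groups (x axis), with 1 point per array. The point shape gives the number in the array name, and the bars give mean ± SD (n = 6). The groups overlap for every gene, and Myc spans 6.36 to 9.88 within wild-type vehicle livers.

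With the number in the array names as a block, the knockout against wild type difference under OCA was 5.32 for Sprr1a, 5.02 for Ly6d, 1.07 for Tspan8 and 0.84 for Golm1, and these 4 genes were called. That fit gave 0.60 for Cd24a (adjusted p = 0.125) and 0.36 for Afp (adjusted p = 0.43), which were no longer called, and −0.16 for Myc. It moved Gpc3 from 0.06 to 0.57 (limma, adjusted p = 0.0719), still not called. Within number 7 alone, with 4 knockout and 4 wild-type vehicle arrays, the differences were 5.29 for Sprr1a, 5.02 for Ly6d, 1.29 for Cd24a, 0.99 for Tspan8, 0.83 for Golm1 and 0.68 for Afp. There Gpc3 stood at 0.35, against 0.18 over all the vehicle arrays, and Myc at −0.05. Without wild-type vehicle replicate 6 the vehicle differences were 5.42, 5.02, 1.24, 1.00, 0.83 and 0.68 for Sprr1a, Ly6d, Cd24a, Tspan8, Golm1 and Afp.

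The second question was whether OCA moved these genes where the receptor is present or absent. None of the 10 was called between OCA and vehicle in knockout liver, where 0.0159% of all genes were called, and none in wild-type liver, where 0.0691% were. At an unadjusted p under 0.05, 1 of the 10 passed in knockout liver, where 5.14% of all genes did, and 2 in wild-type liver, where 9.47% did, so these counts are near those of all genes. Nr0b2, the textbook FXR target, was 2.65-fold higher with OCA in wild-type liver (limma, adjusted p = 0.0244).

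Cd24a had the lowest unadjusted p in both genotypes, with opposite signs. In knockout liver its levels of 5.75 to 6.10 with OCA lay wholly below those of 6.25 to 6.53 with vehicle, a difference of −0.42 ± 0.10 (limma, unadjusted p = 0.000377, adjusted p = 0.463). Cd24a was the only 1 of the 10 whose groups did not overlap there, against 0.351% of all genes that were lower without overlap. In wild-type liver its levels of 5.10 to 5.81 with OCA overlapped those of 4.90 to 5.30 with vehicle, and the difference was 0.28 ± 0.10 (unadjusted p = 0.013, adjusted p = 0.371). The difference between these OCA effects, knockout minus wild type, was −0.70 ± 0.15 (unadjusted p = 6.47e-05, adjusted p = 0.135, range over the alternatives 0.0728 to 0.575). It therefore failed the correction, as did every gene of the array, of which 0% passed and 1140 of 18820 had an unadjusted p under 0.05. Within single array numbers, each with 6 OCA and 2 vehicle arrays, the OCA difference for Cd24a was −0.37 in knockout liver and 0.31 in wild-type liver.

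**Figure D4:**
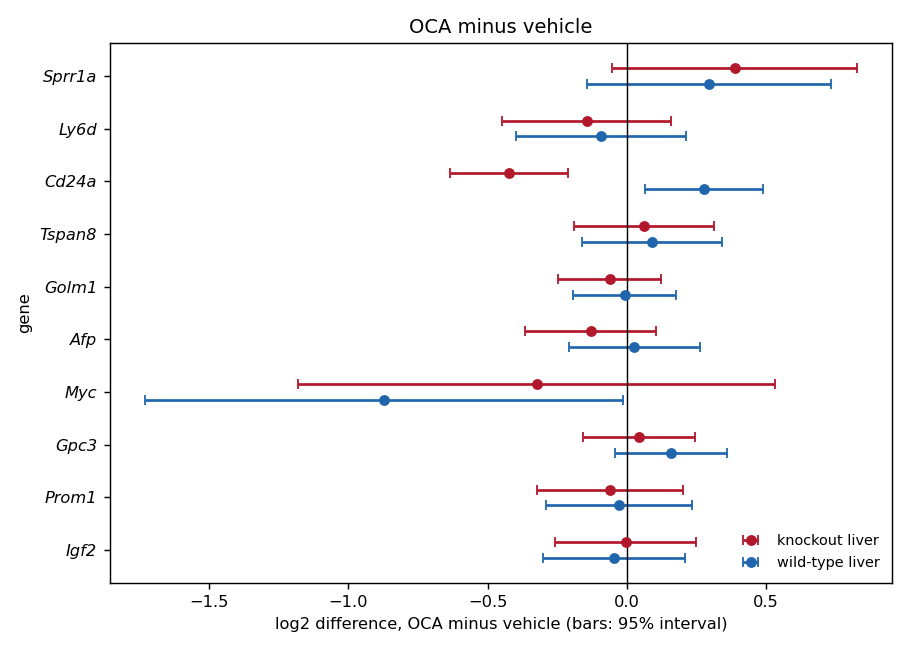
Log2 difference (x axis) between OCA and vehicle for each of the 10 genes (y axis), in knockout liver (red) and wild-type liver (blue). Points are fitted differences and bars their 95% intervals. Cd24a lies at −0.42 in knockout and 0.28 in wild-type liver, and Myc has the widest intervals.

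The Myc difference with OCA in wild-type liver was −0.87 ± 0.42, with a 95% interval of −1.73 to −0.02 (limma, unadjusted p = 0.0462, adjusted p = 0.517). The wild-type OCA levels of 6.43 to 8.41 lay inside the vehicle range of 6.36 to 9.88. Among the wild-type arrays numbered 5 the difference was 0.16, so its sign was not kept. In knockout liver the Myc difference was −0.32 ± 0.42, and 0.05 among the arrays numbered 9.

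Sprr1a differed by 0.39 ± 0.21 with OCA in knockout liver (95% interval −0.05 to 0.83) and by 0.29 ± 0.21 in wild-type liver (−0.14 to 0.73). Within single array numbers both values lay near 0, at −0.0057 and −0.028. Ly6d differed by −0.15 ± 0.15 in knockout liver and −0.09 ± 0.15 in wild-type liver, with 95% intervals of −0.45 to 0.16 and −0.40 to 0.21. Golm1 differed by −0.06 ± 0.09 and −0.01 ± 0.09 in knockout and wild-type liver, and Tspan8 by 0.06 ± 0.12 and 0.09 ± 0.12. The 3 fetal genes lay between −0.13 and 0.16 in either genotype, and Prom1 between −0.06 and −0.03. These intervals leave room for OCA differences of up to about the size of their bounds, and do not show that the levels were equal.

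Across the 24 arrays, with each group's mean removed, 45 pairs of the 10 genes were compared. None passed after adjustment over the 45 pairs. Ly6d and Golm1 gave Pearson r = 0.47 (permutation p = 0.0204, adjusted p = 0.50) and Spearman rho = 0.55 (permutation p = 0.0071, adjusted p = 0.32), and r = 0.48 without the 2 arrays farthest from the median of Ly6d. Ly6d and Sprr1a gave r = 0.51 (permutation p = 0.0316, adjusted p = 0.50) and rho = 0.40 (permutation p = 0.0686, adjusted p = 0.60), and r = 0.34 without the 2 farthest arrays. The gene most like each of the 10 over these deviations was sought by Pearson r. The search left out the 10 themselves and genes with predicted, clone-based or similar names, such as Olfr and Mir. It gave Snapc5 for Afp (0.82), Pde10a for Gpc3 (0.71), Sncg for Igf2 (0.81), Tedc1 for Ly6d (0.74) and Tmem171 for Sprr1a (0.74). It also gave Nsdhl for Cd24a (0.76), Asb16 for Tspan8 (0.79), Slurp2 for Prom1 (0.76), Mfsd6l for Golm1 (0.74) and Ciao3 for Myc (0.82). Each is the highest of the many correlations searched and describes these arrays alone.

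The wider gene groups around these members were counted in the OCA-treated mice. Over all genes 17.4% were called higher and 13.3% lower under OCA, and 15.4% and 12.1% under vehicle. Under OCA the array number and the genotype cannot be told apart, and the list and marker genes below are given without that number as a block. The block cut the calls over all genes under OCA from 5780 to 2334. Of 25 other oncofetal and progenitor genes, 9 were called higher in knockout liver and 1 lower, with a median of 0.18, and under vehicle 8 were higher and none lower. Igf2bp3, an RNA-binding protein of fetal tissue and tumours that binds Igf2 mRNA, was higher by 2.54 ± 0.13 (limma, adjusted p = 3.92e-14). Igf2 itself was not called. Igdcc4, a surface receptor of the immunoglobulin family, was higher by 1.70 ± 0.17 (adjusted p = 1.91e-08), and Mest, an imprinted fetal gene, by 1.05 ± 0.15 (adjusted p = 3.52e-06).

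Of 27 other liver tumour-linked genes, 18 were called higher and 1 lower under OCA, with a median of 0.59, and under vehicle 19 were higher and 2 lower. Akr1c18, a steroid-reducing enzyme, was higher by 3.71 ± 0.20 (limma, adjusted p = 3.59e-13), Robo1, a guidance receptor, by 2.21 ± 0.11 (adjusted p = 8.03e-14) and Lcn2, the secreted iron-trapping protein lipocalin, by 2.88 ± 0.72 (adjusted p = 0.00275). Of 11 measured regulators and neighbours of Afp, none was higher and 8 were lower under OCA, with a median of −0.41, and 5 were lower under vehicle. Zhx2, known in mice as a repressor of Afp after birth, was lower, at −0.57 ± 0.09 under OCA (limma, adjusted p = 3.3e-05). Under vehicle Zhx2 differed by −0.11 ± 0.09 and was not called, and the Afp difference there was 0.77 ± 0.11. Zhx2 was thus called only under OCA, where the array number and the genotype cannot be told apart. A link between the Zhx2 and Afp levels was not tested. Hnf4a, a hepatocyte transcription factor, was lower, at −0.56 ± 0.08 (adjusted p = 8.75e-06) and Foxa3, another, at −0.62 ± 0.13 (adjusted p = 0.000368).

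Around Igf2, 6 of 16 genes of the insulin-like growth factor axis were called higher and 5 lower under OCA, and 4 higher and 6 lower under vehicle. The binding protein Igfbp2 was lower, at −1.33 ± 0.12 (limma, adjusted p = 2.67e-09), while Igfbp3 was higher by 1.20 ± 0.12 (adjusted p = 3.54e-08) and Igfbp1 by 1.24 ± 0.41 (adjusted p = 0.0217). Around Myc, 3 of 24 partners and targets were called higher and 5 lower under OCA, with a median of −0.09. Under vehicle 4 were called higher and 1 lower. Over all genes 17.4% were called higher and 13.3% lower under OCA, so nothing is read from the Myc list counts. Ndrg1, a gene that Myc is known to repress, was higher by 1.63 ± 0.19 (adjusted p = 3.08e-07), Pvt1, the noncoding neighbour of Myc, by 1.10 ± 0.16 (adjusted p = 8.35e-06), and Mycn was lower, at −0.60 ± 0.13 (adjusted p = 0.000975).

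Around Gpc3, Tspan8 and Prom1, 13 of 26 other glypicans, syndecans and tetraspanins were called higher and 7 lower under OCA, with a median of 0.27, and 11 higher and 7 lower under vehicle. The tetraspanin Cd63, a lysosome and exosome protein, was higher by 2.95 ± 0.18 (limma, adjusted p = 2.72e-12) and Cd53, a tetraspanin of leukocytes, by 1.24 ± 0.18 (adjusted p = 6.18e-06), while Tspan33 was lower, at −1.31 ± 0.19 (adjusted p = 4.41e-06). Of 17 measured YAP targets and liver injury genes, 10 were higher and none lower under OCA (11 and none under vehicle), among them Gadd45b by 2.87 ± 0.24 (adjusted p = 1.09e-09), Cdkn1a, an inhibitor of the cell cycle, by 2.86 ± 0.56 (adjusted p = 0.000246) and Klf6 by 1.70 ± 0.21 (adjusted p = 7.02e-07). None of the genes of these lists was called between OCA and vehicle in either genotype.

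**Figure D5:**
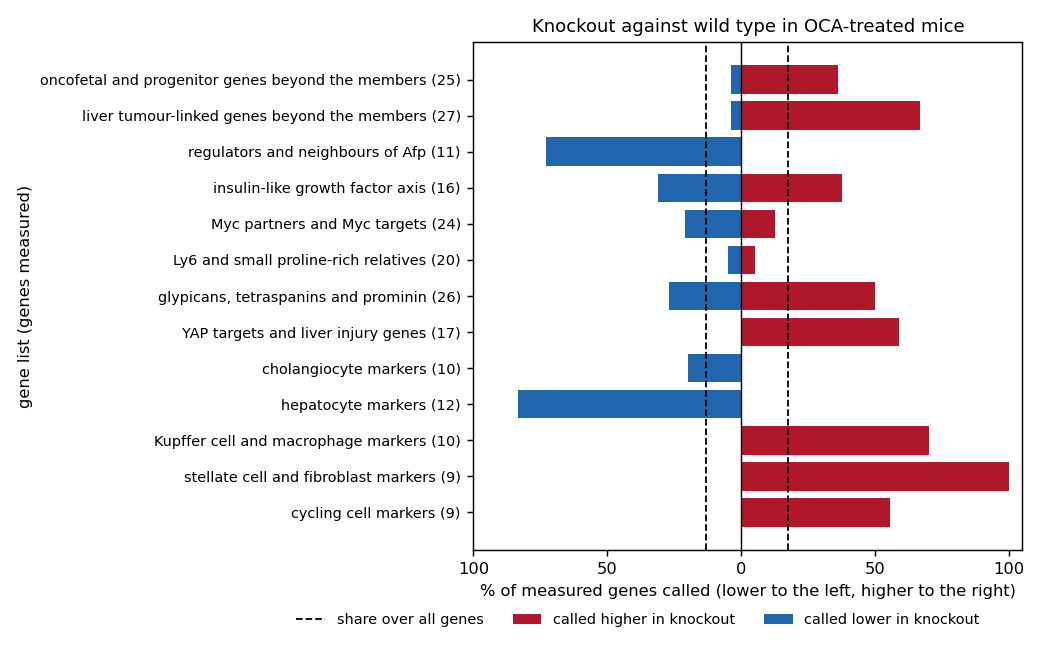
Share of the measured genes of each list (y axis, number measured in brackets) called higher (red, to the right) or lower (blue, to the left) in knockout than in wild-type liver of OCA-treated mice, in percent (x axis). Dashed lines give the share over all genes, 17.4% higher and 13.3% lower. Tumour-linked and stellate cell lists lie to the right, and the hepatocyte and Afp regulator lists to the left.

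Markers of liver cell types also differed between the genotypes, and their part in the member values was not tested. Over all genes 17.4% were called higher and 13.3% lower under OCA, and 15.4% and 12.1% under vehicle. All 9 stellate cell and fibroblast markers were called higher in knockout liver under OCA and under vehicle, with summed linear signals of 4477 to 4992 in knockout OCA livers and 2130 to 2872 in wild-type OCA livers. Of 10 Kupffer cell and macrophage markers 7 were higher and none lower under OCA (6 and none under vehicle), with OCA sums of 3422 to 6164 and 1555 to 3766 in the same groups. Of 9 cycling cell markers 5 were higher and none lower under OCA (7 and none under vehicle), with OCA sums of 325 to 616.4 and 289.9 to 442.6. Of 12 hepatocyte markers none was higher and 10 were lower under OCA (6 lower under vehicle), with OCA sums of 58910 to 65530 and 73280 to 77700. Cholangiocyte markers, which label the bile duct cells in which Cd24a, Prom1 and Tspan8 can also be made, were counted in both treatments. Under OCA 2 of 10 were called lower and none higher, with sums of 949.2 to 1065 in knockout OCA livers and 1022 to 1153 in wild-type OCA livers. Under vehicle 4 of 10 were called higher and none lower, with sums of 928.7 to 1045 in knockout vehicle livers and 950 to 1131 in wild-type vehicle livers. The sums overlapped in both treatments, but Onecut2, at group means of 9.26 to 9.55 log2, made up most of them. They therefore say little of the other cholangiocyte markers. The median difference of the 10 markers was 0.07 under OCA and 0.23 under vehicle. The array gives no values of 0, so none of these markers was at 0.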

How the data were processed

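The authors made the deposited log2 values by RMA, per the submitters' processing notes. No source used here states the log base, but values from 0.87 to 13.6 can only be logs and were read as log2. The median signal of an array was 4.57 to 4.65. Precision is limited by the number of arrays. Of 35556 probe sets, 21218 carried 1 gene symbol, 1881 several, and 12457 had no entry in the platform annotation. The highest-mean probe set per symbol was kept, which left 18820 genes, with symbols and positions from RefSeq (GRCm38.p6). For Igf2 a probe set shared with an antisense gene was left out. Means of the 4 groups were fitted in limma 3.58.1 in R 4.3.3 (20 residual degrees of freedom, two-sided, Benjamini-Hochberg), and it was tested on simulated data. Fold is 2 to the power of the absolute log2 difference. Figures were drawn with matplotlib 3.10.9.

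The members, gene lists and tests were chosen with earlier results of these data known. Beside the members, Nr1h4 and Nr0b2, the named genes were up to 3 per list with the largest absolute difference under OCA among genes called in any comparison, and the 3 genes most like each member, of which the first is given. Replicate numbers did not pair the arrays (correlations of deviations from −0.08 to 0.17). Labels give each array its own mouse. Alternatives covered scaling, moderation of the spread, array weights, the low-value filter, probe sets, the array number, 4 arrays with names ending in _2, the replicate block and leaving out each array.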

Additional observations from a re-analysis of the deposited data

Results flagged for a closer look

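In 40 sets of 6 arrays, 1 per gene and group, a single array was far from the others of its group in 2 sets, and chance gives about 1 such set in 20. Igf2 in knockout OCA liver had replicate 6 at 3.78, with the next array at 3.47, a gap of 0.792 of the group's range. Prom1 in knockout OCA liver had replicate 5 at 3.88, with the next array at 3.48, a gap of 0.664 of the range. Both gaps exceed Dixon's 95% value for 6 arrays. Neither gene was called in any comparison that left out any 1 array.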

How the results depend on the processing

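The number of the 10 genes called between knockout and wild type under OCA stayed at 6, and at 0 for OCA in either genotype and for the difference of OCA effects, in every fit that left out 1 array. The count of 6, taken in either direction, ranged from 4 to 8 over the other settings. The 8 came with centring on the median of the named genes, where Igf2 and Prom1 were called lower in knockout liver. The replicate block left these counts at 6, 0, 0 and 0 and changed no call of the 10, while OCA in wild-type liver called 4 genes of the array against 13. The array number as a block called 4 under OCA. The filter at the median gene (5.28) left Ly6d, Sprr1a, Cd24a, Golm1 and Myc in the test, of which 4 were called.

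Centring on the median of the named genes, chosen after the data were seen, moved the median of all genes to −0.20 under vehicle and −0.21 under OCA. It also moved the share of higher calls to 17.5% and 16.9% against 56.1% and 56.7% as deposited, with 10130 and 11099 genes called against 5174 and 5780. Quantile normalization gave 46.9% and 46.6%. Over all settings the OCA calls ranged from 0 to 11 genes in knockout liver and from 2 to 667 in wild-type liver (667 with the array number as a block), against 3 and 13 as reported. The array number as a block called 2334 genes for knockout under OCA and 34 for the difference of OCA effects. Array weights called 11 and 5 genes for OCA in knockout and wild-type liver, the fit of only the groups compared 0 and 2, and the filter at the median gene 0 and 22.

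The genotype differences of the 6 genes called under OCA kept their sign in either treatment in all 278 refits, and under OCA 2 lost their call. Other values changed sign in 74 of 987 refits, most of them near 0, and the cause was not tested. With the array number as a block, which equals the arrays of that number alone, OCA in wild-type liver gave −0.0060 for Gpc3, 0.065 for Igf2, −0.028 for Sprr1a, −0.089 for Tspan8, 0.033 for Prom1 and 0.16 for Myc. OCA in knockout liver gave 0.0015 for Igf2, −0.0057 for Sprr1a, −0.014 for Tspan8 and 0.049 for Myc. Knockout against wild type gave −0.16 under OCA and −0.051 under vehicle for Myc. The difference of OCA effects gave 0.22 for Gpc3, −0.064 for Igf2, 0.0027 for Ly6d, 0.075 for Tspan8, 0.011 for Golm1 and −0.11 for Myc. Array weights gave −0.040 for Afp and 0.018 for Golm1 with OCA in wild-type liver, 0.0072 for Igf2 with OCA in knockout liver and 0.028 for the Prom1 difference of effects. The centring on named genes gave 0.0048 for Golm1 with OCA in wild-type liver and −0.13 for Gpc3 in knockout under OCA. Without the arrays ending in _2, Tspan8 with OCA in knockout liver was −0.040.

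Leaving out each array gave, for OCA in wild-type liver, −0.055 to 0.062 for Afp, −0.12 to 0.068 for Igf2, −0.13 to 0.037 for Prom1 and −0.060 to 0.031 for Golm1. For OCA in knockout liver it gave −0.020 to 0.094 for Gpc3, −0.062 to 0.030 for Igf2, −0.030 to 0.11 for Tspan8 and −0.14 to 0.0053 for Prom1. Myc in knockout against wild type under vehicle ranged from −0.091, without wild-type vehicle replicate 5, to 0.61. The difference of OCA effects ranged from −0.073 to 0.11 for Igf2, −0.18 to 0.044 for Ly6d, −0.10 to 0.23 for Sprr1a, −0.12 to 0.052 for Tspan8 and −0.11 to 0.071 for Prom1.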

Other observations

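Further genes of the same lists, picked after their values were seen, differed between knockout and wild-type liver in the OCA-treated mice. There the array number and the genotype cannot be told apart for these genes either. Tert, the catalytic part of telomerase, was higher by 1.07 ± 0.19 log2 units (limma, adjusted p = 7.88e-05). Igf2r, the receptor that clears Igf2 protein, was higher by 0.70 ± 0.07 (adjusted p = 2.44e-08), and Igf1, the adult liver growth factor, was lower, at −0.75 ± 0.07 (adjusted p = 3.97e-09). Meg3, a maternally expressed noncoding RNA, was lower, at −0.70 ± 0.18 (adjusted p = 0.0031), against the direction of the 9 oncofetal genes called higher. Anxa2, a membrane-binding protein linked to liver tumours, was higher by 2.17 ± 0.11 (adjusted p = 3.92e-14). None of these 5 genes was called between OCA and vehicle in either genotype.

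Blood and sinusoid markers were counted in both treatments. Over all genes 17.4% were called higher and 13.3% lower under OCA, and 15.4% and 12.1% under vehicle. Under OCA, none of 5 T cell markers was called, 1 of 7 neutrophil markers was lower, 2 of 6 erythroid markers were lower and 1 of 8 sinusoidal endothelial markers was higher. Under vehicle, 1 T cell, no neutrophil, 3 erythroid and 3 sinusoidal endothelial markers were lower and none was higher. The erythroid marker Alas2 was lower under OCA, at −1.15 ± 0.11 (limma, adjusted p = 9.96e-09). The summed erythroid signal was 270.3 to 383.2 in knockout OCA livers and 542.2 to 754.2 in wild-type OCA livers, with no overlap. Alas2, at means of 7.95 and 9.10 log2 in these groups, made up most of that linear sum. The median difference of the 6 erythroid markers was 0.01, and 4 were not called.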
